A study of Mus musculus with 11 samples.

Results

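The matrix metalloproteinase genes Mmp3, Mmp9, Mmp12, Mmp13 and Mmp14, the related protease gene Adamts1, the inhibitor genes Timp1 and Timp3 and the crosslinking enzyme gene Lox were followed in mouse macrophages. These 9 of the 18755 genes tested are genes of extracellular matrix turnover, taken by symbol where the platform annotation names a probe set for that gene alone. Each of the 9 had 1 such probe set, and all 9 were fitted with no filter on low values. The cells were macrophages differentiated over 1 week from marrow of wild type C57Bl/6 mice, with 5 ng/ml mCSF (a macrophage growth factor) in the medium, and were treated 24 hours after they had been replated. Arrays were used from 4 samples given LPS plus PGE, from 3 samples given LPS and from 4 untreated samples. LPS, lipopolysaccharide from bacteria, was given at 100 ng/ml, and PGE, prostaglandin E of a form the labels do not name, at 10 µM, both for 1 hour. Of the 12 arrays the submitters made, 1 from the LPS group was left out by them. No label ties a replicate to a mouse or a culture of its own, so p-values measure only the spread between these arrays. Levels are on a log2 scale, on which a difference of 1 is a 2-fold change.

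Matrix metalloproteinases are zinc enzymes, made as inactive precursors, that cut collagens, elastin and other matrix proteins. They are held in check by tissue inhibitors of metalloproteinases (the Timp genes), and precursors are activated by other proteases such as plasmin. Lysyl oxidase, the product of Lox, links collagen and elastin fibres to each other. Macrophages are a known source of these proteases in inflamed tissue, where Mmp12, the macrophage elastase, takes its name from them.

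After 1 hour of LPS the collagenase gene Mmp13, the membrane-anchored collagenase gene Mmp14, Adamts1 and Lox were higher than in untreated cells, and none of the 9 fell. With PGE added, Mmp13, Mmp14 and Adamts1 were still above untreated cells but below LPS alone, Lox was back near its untreated level, and Timp1 was higher than in either of the other groups. Over untreated cells LPS raised 4 of the 9 genes (limma, Benjamini-Hochberg adjusted p under 0.05), where 13.2% of all genes passed, 6.55% higher and 6.69% lower. The rise was at least 2-fold for 3 of them, beside 1.57% of all genes with such a rise and 0.363% with such a fall. LPS plus PGE raised 4 of the 9 over untreated cells and lowered none, where 31.7% of all genes passed, 13.8% higher and 17.9% lower. For 2 of them the rise was at least 2-fold, beside 1.86% of all genes with such a rise and 1.11% with such a fall. Between LPS plus PGE and LPS, 1 of the 9 rose and 4 fell, where 24.7% of all genes passed, 11.9% higher and 12.9% lower. Of these, 1 fell and none rose at least 2-fold, beside 0.149% and 0.565% of all genes. With array medians made equal, 5850 of all genes rose and 718 fell in that comparison, in place of 2225 and 2416, so the balance of directions over all genes depends on the scaling. Arrays of the groups did not overlap for 5 genes in LPS over untreated cells, all higher (10.5% of all genes were higher and 12.6% lower in this way). They did not overlap for 4 higher and 1 lower in LPS plus PGE over untreated cells (13.7% and 21.4% of all genes), and for 1 higher and 4 lower in LPS plus PGE over LPS (15.5% and 18.3%). The median change of the 9 was 0.46 for LPS and 0.23 for LPS plus PGE over untreated cells, and -0.42 for LPS plus PGE over LPS, while the medians of all genes were -0.015, 0.017 and -0.005. Each pair of these comparisons shares the arrays of 1 group, so the counts are not independent of each other. In untreated cells the means of Timp3, Mmp9, Mmp3, Adamts1, Lox and Timp1 ran from 4.50 to 5.83. These lay below the median of all genes (5.925) and above their lower quartile (3.864).

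**Figure D1:**
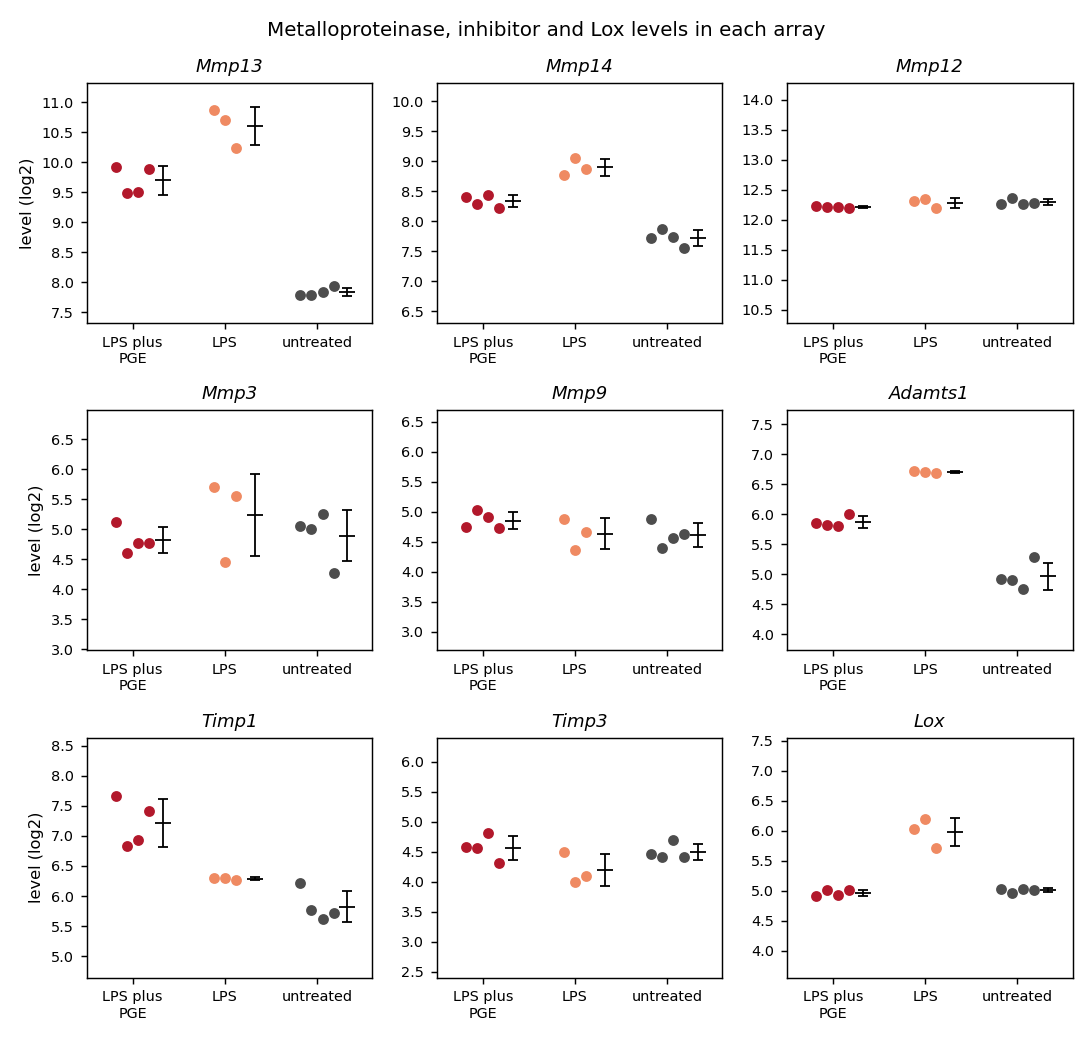
Level (log2) of each gene in each array of the LPS plus PGE, LPS and untreated groups; points are arrays, the bar beside them is the mean with its SD, and every panel spans the same number of log2 units. Mmp13, Mmp14 and Adamts1 are highest in LPS arrays and intermediate in LPS plus PGE arrays, Lox is raised in LPS arrays alone, and Timp1 is highest in LPS plus PGE arrays.

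Mmp13 cleaves fibrillar collagen and had the largest change of the 9 genes. It stood at 9.92, 9.48, 9.50 and 9.89 in the LPS plus PGE arrays, at 10.86, 10.70 and 10.24 in the LPS arrays and at 7.78, 7.79, 7.83 and 7.94 in the untreated arrays. No array of any group overlapped with another group. LPS raised it by 2.77 ± 0.15 (SE) over untreated cells, which is 6.81-fold (limma adjusted p = 6.58e-08), and LPS plus PGE raised it by 1.87 ± 0.14, which is 3.65-fold (limma adjusted p = 7.48e-07). It was lower in LPS plus PGE than in LPS arrays, with a change of -0.90 ± 0.15 (95% interval -1.23 to -0.58, limma adjusted p = 0.00187). The separation between those groups was small in single arrays: the lowest LPS array lay at 10.24 and the highest LPS plus PGE array at 9.92.

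Mmp14, a membrane-anchored enzyme that cuts collagen and activates the precursor of the gelatinase Mmp2, followed the same order with smaller steps. Its levels were 8.41, 8.29, 8.44 and 8.22 with LPS plus PGE, 8.77, 9.05 and 8.87 with LPS, and 7.72, 7.87, 7.74 and 7.56 in untreated cells. The 3 groups did not overlap. The changes over untreated cells were 0.62 ± 0.09 for LPS plus PGE (limma adjusted p = 0.000193) and 1.17 ± 0.09 for LPS (limma adjusted p = 2.55e-06). LPS plus PGE was lower than LPS, at -0.55 ± 0.09 (limma adjusted p = 0.00201). The level of Mmp2 itself differed by -0.13 with LPS plus PGE and by -0.05 with LPS from untreated cells, and neither difference passed the test (limma adjusted p = 0.253 and 0.774).

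Adamts1 encodes a secreted protease of the ADAMTS family, which cleaves proteoglycans such as versican. It measured 5.86, 5.82, 5.80 and 6.01 with LPS plus PGE, 6.72, 6.70 and 6.69 with LPS, and 4.92, 4.90, 4.75 and 5.29 in untreated cells. The LPS arrays lay close together and apart from both other groups, although untreated replicate 4 was higher than the rest of its group. It rose by 0.91 ± 0.10 with LPS plus PGE (limma adjusted p = 2.47e-05) and by 1.73 ± 0.11 with LPS (limma adjusted p = 2.21e-07), and the change between LPS plus PGE and LPS was -0.83 ± 0.11 (limma adjusted p = 0.000399). Over untreated cells these are 1.87-fold and 3.33-fold.

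The elastase gene Mmp12, the stromelysin gene Mmp3 and the gelatinase gene Mmp9 passed the test in none of the 3 comparisons. Mmp12 was bright in every array, from 12.20 to 12.23 with LPS plus PGE, from 12.19 to 12.34 with LPS and from 12.26 to 12.37 in untreated cells, where the highest value of any probe set in the table was 13.81. Its LPS plus PGE arrays all lay below its untreated arrays, yet the difference was only -0.08 ± 0.05 (95% interval -0.20 to 0.04, limma adjusted p = 0.259). Against LPS, LPS plus PGE differed by -0.06 (95% interval -0.19 to 0.06), and LPS differed from untreated cells by -0.02 (95% interval -0.14 to 0.11).

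Mmp3, whose product can activate other metalloproteinase precursors, varied more within groups than any of the other 8 genes in LPS and untreated arrays. It was 5.13, 4.61, 4.78 and 4.77 with LPS plus PGE, 5.70, 4.45 and 5.56 with LPS, and 5.06, 5.00, 5.25 and 4.27 in untreated cells. LPS replicate 2 and untreated replicate 4 were the low arrays. The difference between LPS and untreated cells was 0.34 ± 0.29 (95% interval -0.29 to 0.97, limma adjusted p = 0.505), and between LPS plus PGE and untreated cells it was -0.07 ± 0.27. LPS plus PGE against LPS gave -0.42 ± 0.29 (limma adjusted p = 0.305), and it rested on single arrays: without LPS replicate 2 it gave -0.81 and passed (limma adjusted p = 0.0312), and without LPS replicate 1 it gave -0.18 (0.703). The difference between LPS and untreated cells likewise ran from 0.11 without LPS replicate 1 to 0.74 without LPS replicate 2 (limma adjusted p = 0.862 and 0.0694).

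Mmp9, a gelatinase that neutrophils also store, ranged from 4.72 to 5.02 with LPS plus PGE, from 4.36 to 4.88 with LPS and from 4.40 to 4.88 in untreated cells. The 3 groups overlapped. LPS differed from untreated cells by 0.01 ± 0.14 (95% interval -0.28 to 0.31) and LPS plus PGE by 0.23 ± 0.13 (95% interval -0.04 to 0.50, limma adjusted p = 0.179). LPS plus PGE against LPS gave 0.22 ± 0.14 (limma adjusted p = 0.254), and ran from 0.08 without LPS replicate 2 to 0.34 without LPS replicate 1. The values with LPS plus PGE depended on the scaling: with array medians made equal Mmp9 passed over untreated cells (0.36, limma adjusted p = 0.0218) and over LPS (0.38, 0.0263), and after quantile normalization the changes were 0.07 and 0.05.

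**Figure D2:**
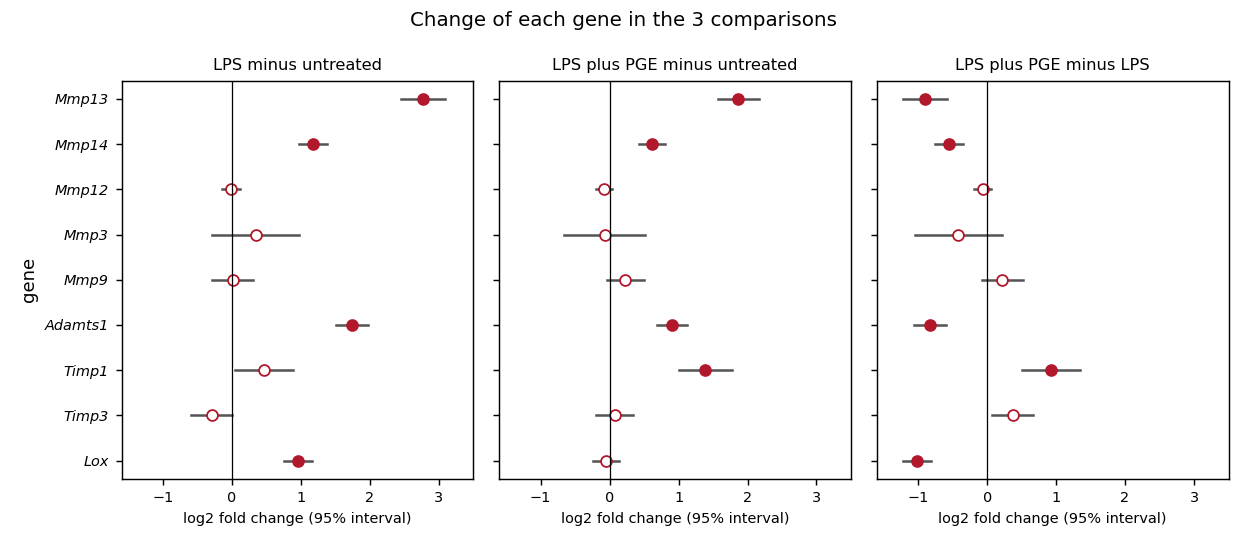
Log2 fold change of each gene with its 95% interval in LPS minus untreated, LPS plus PGE minus untreated and LPS plus PGE minus LPS; filled circles passed the limma adjusted p of 0.05. Of the filled circles in the right panel, those of Mmp13, Mmp14, Adamts1 and Lox lie below 0 and that of Timp1 lies above it.

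Mmp13, Mmp12 and Mmp3 sit in a row on mouse chromosome 9 together with 7 other metalloproteinase genes, in the order Mmp13, Mmp12, Mmp1b, Mmp3, Mmp1a, Mmp10, Mmp8, Mmp27, Mmp20 and Mmp7 in RefSeq. Mmp13 and Mmp10 rose with LPS, while Mmp12 and Mmp3, which lie between them, did not pass the test. Mmp10, a stromelysin gene singled out after its values were seen, stood at 5.10, 4.90, 4.78 and 5.23 with LPS plus PGE, 6.08, 5.56 and 5.57 with LPS, and 5.02, 5.13, 4.71 and 4.61 in untreated cells. LPS arrays lay above all others. It rose by 0.87 ± 0.16 with LPS (limma adjusted p = 0.00327), and LPS plus PGE was lower than LPS by a change of -0.74 ± 0.16 (limma adjusted p = 0.00836) and did not differ significantly from untreated cells (0.14 ± 0.15, limma adjusted p = 0.51). Mmp1a, Mmp1b, Mmp20 and Mmp7 had untreated means of 3.05 to 3.48, below the lower quartile of all genes (3.86), and passed in none of the comparisons. Mmp8, with an untreated mean of 10.13, passed in none either. Mmp27 was not analysed here.

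The 250 bases before the RefSeq start of 4 genes of this row are printed because they share a motif. Those of Adamts1 and Timp1 are printed because these genes moved in opposite directions with PGE. Sequences are from RefSeq on GRCm38.p6, read 5′ to 3′ on the gene's strand, and 7 of the 9 genes had such a window to use. Capitals mark matches to TGANTCA (the AP-1 motif), TATAAA (the TATA motif) and TGACG (a half-site of the cAMP response element, CRE).
Mmp13: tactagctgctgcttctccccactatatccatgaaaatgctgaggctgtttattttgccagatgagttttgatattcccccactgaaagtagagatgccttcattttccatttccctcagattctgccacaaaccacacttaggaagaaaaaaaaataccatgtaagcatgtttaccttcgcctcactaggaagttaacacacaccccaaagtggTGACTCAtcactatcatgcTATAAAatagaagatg
Mmp10: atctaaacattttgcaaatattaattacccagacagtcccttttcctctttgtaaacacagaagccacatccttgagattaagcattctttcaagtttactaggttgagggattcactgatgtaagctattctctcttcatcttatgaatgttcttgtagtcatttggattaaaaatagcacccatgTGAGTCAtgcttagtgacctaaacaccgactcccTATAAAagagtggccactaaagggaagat
Mmp3: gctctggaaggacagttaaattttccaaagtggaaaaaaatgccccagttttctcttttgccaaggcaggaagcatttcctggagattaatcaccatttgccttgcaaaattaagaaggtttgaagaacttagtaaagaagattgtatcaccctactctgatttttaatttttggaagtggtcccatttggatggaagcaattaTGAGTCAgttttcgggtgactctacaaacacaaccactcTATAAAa
Mmp12: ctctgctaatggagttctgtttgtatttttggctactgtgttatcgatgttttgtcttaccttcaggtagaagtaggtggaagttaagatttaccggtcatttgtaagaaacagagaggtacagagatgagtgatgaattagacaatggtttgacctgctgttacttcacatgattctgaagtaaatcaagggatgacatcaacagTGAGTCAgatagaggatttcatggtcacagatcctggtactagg
Adamts1: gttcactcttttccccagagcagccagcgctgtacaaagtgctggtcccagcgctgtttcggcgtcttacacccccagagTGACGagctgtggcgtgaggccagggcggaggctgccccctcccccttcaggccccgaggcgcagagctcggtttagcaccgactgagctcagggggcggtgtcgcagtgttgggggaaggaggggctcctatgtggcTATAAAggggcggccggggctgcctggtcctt
Timp1: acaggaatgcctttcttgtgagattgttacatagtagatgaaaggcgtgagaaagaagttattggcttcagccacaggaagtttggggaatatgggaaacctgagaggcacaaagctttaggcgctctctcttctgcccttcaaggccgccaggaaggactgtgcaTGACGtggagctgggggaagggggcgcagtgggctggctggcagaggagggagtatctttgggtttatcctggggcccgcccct
The windows lie at chr9:7272264-7272513 for Mmp13, chr9:7502092-7502341 for Mmp10, chr9:7445572-7445821 for Mmp3 and chr9:7347124-7347373 for Mmp12, all on the plus strand. Those of Adamts1 and Timp1 lie at chr16:85803114-85803363 on the minus strand and at chrX:20869916-20870165 on the plus strand.

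The printed windows of the row were chosen with their AP-1 match known, so that they all hold one is no result. Of all 12 windows of the 10 genes of the row, 8 hold a match, those without being the windows of Mmp8 and Mmp27 and 1 of the 2 windows each of Mmp12 and Mmp7. Counted from the start, with -1 the base just before it, the match begins at -35 in Mmp13, -63 in Mmp10, -46 in Mmp3 and -44 in the printed window of Mmp12. Among 32851 such windows of all genes, 6.75% hold TGANTCA on either strand. TATAAA, found in 12.4% of all windows, is present in the windows of Mmp13, Mmp10, Mmp3 and Adamts1. It begins at -16 in Mmp13, -29 in Mmp10, -7 in Mmp3 and -32 in Adamts1. All these distances depend on the RefSeq start taken. TGACG, found in 17.8%, is present in Adamts1 and Timp1. The full CRE TGACGTCA (1.55% of windows, each of which also holds the half-site), the NF-kB motif (3.90%) and the CArG box (1.47%) have no match in these 6 windows or in those of Mmp14 and Timp3. These are letter matches in 1 stretch per start and say nothing of whether a factor binds there.

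**Figure D3:**
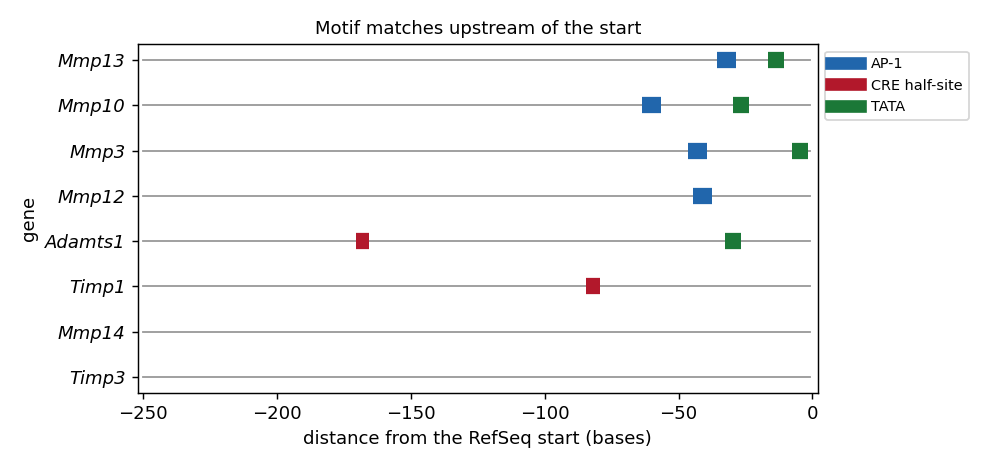
Motif matches in the 250 bases before the RefSeq start of 8 genes, drawn by distance from the start; each line is 1 window and each block 1 match. AP-1 matches begin between -63 and -35 in Mmp13, Mmp10, Mmp3 and Mmp12, and CRE half-sites begin at -170 in Adamts1 and -84 in Timp1.

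Of the inhibitors, Timp1 rose when PGE was present and Timp3 did not pass the test. Timp1, a secreted inhibitor of most metalloproteinases, was 7.67, 6.83, 6.94 and 7.42 with LPS plus PGE, 6.30, 6.30 and 6.26 with LPS, and 6.21, 5.77, 5.61 and 5.71 in untreated cells. All LPS plus PGE arrays lay above all others. It rose by 1.39 ± 0.18 over untreated cells, which is 2.62-fold (limma adjusted p = 9.63e-05), and LPS plus PGE was higher than LPS by 0.93 ± 0.19, which is 1.90-fold (95% interval 0.51 to 1.34 on the log2 scale, limma adjusted p = 0.00608). The LPS arrays also lay above the untreated arrays, but the lowest of them (6.26) was close to the highest untreated array (6.21). That difference, 0.46 ± 0.19, did not pass (95% interval 0.05 to 0.88, limma adjusted p = 0.145).

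Timp3, an inhibitor that stays bound to the matrix and also blocks ADAMTS enzymes, was 4.58, 4.57, 4.81 and 4.32 with LPS plus PGE, 4.50, 4.00 and 4.10 with LPS, and 4.47, 4.42, 4.69 and 4.42 in untreated cells. LPS replicates 2 and 3 were the lowest arrays. LPS differed from untreated cells by -0.30 ± 0.13 (limma adjusted p = 0.185; -0.45 and 0.0433 without LPS replicate 1), and LPS plus PGE differed from them by 0.07 ± 0.12. LPS plus PGE against LPS gave 0.37 ± 0.13 (limma adjusted p = 0.0635). That value passed without LPS replicate 1 (0.52, limma adjusted p = 0.0181) or LPS plus PGE replicate 4 (0.45, 0.0342), and with array medians made equal (0.53, 0.00995). Other settings weakened it: over all the alternatives described below it went down to 0.179, and the limma adjusted p went up to 0.456. With single arrays left out the limma adjusted p went up to 0.194.

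Lox was raised by LPS and stood near its untreated level when PGE was present. That untreated level, a mean of 5.02, lay below the median of all genes (5.925). Its arrays read 4.92, 5.01, 4.93 and 5.01 with LPS plus PGE, 6.03, 6.19 and 5.72 with LPS, and 5.04, 4.96, 5.03 and 5.02 in untreated cells. The LPS arrays stood apart from all others, and the other 2 groups overlapped. LPS raised Lox by 0.96 ± 0.09, or 1.95-fold (limma adjusted p = 1.55e-05), and LPS plus PGE was lower than LPS with a change of -1.01 ± 0.09, or 2.02-fold (limma adjusted p = 2.97e-05). It was the one gene of the 9 with a fall of at least 2-fold in that comparison, though only just. Its 95% interval there was -1.21 to -0.81, which takes in the change of Mmp13 (-0.90). Over the alternatives described below the Lox change ran from -1.14 to -0.853, so it did not always reach 2-fold. LPS plus PGE against untreated cells gave -0.05 ± 0.09 (95% interval -0.24 to 0.14, limma adjusted p = 0.678), an interval that excludes a rise as large as that with LPS. In these bulk samples, fewer cells of a type and less RNA per cell cannot be told apart.

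Fibroblasts are a usual source of Lox, and neutrophils of Mmp9. Of 12 fibroblast and stroma markers, 1 fell and none rose with LPS, the collagen gene Col3a1. In LPS plus PGE over LPS 2 rose and none fell, Col3a1 (0.44 ± 0.07) and the growth factor receptor gene Pdgfrb (0.33 ± 0.11). The Pdgfrb call was lost after quantile and cyclic loess normalization (limma adjusted p = 0.347 and 0.183). Under each of these 2 scalings 1 marker of the list rose and 1 fell, and with array medians made equal 6 rose and none fell. The mean level of the list was 4.51 to 4.73 in LPS plus PGE, 4.48 to 4.63 in LPS and 4.49 to 4.62 in untreated arrays. Of 10 neutrophil markers 2 rose with LPS, the chemokine receptor gene Cxcr2 (0.44 ± 0.09) and Retnlg (0.36 ± 0.10), and Cxcr2 was lower in LPS plus PGE than in LPS (-0.45 ± 0.09). The Retnlg call was lost with array medians made equal (limma adjusted p = 0.0557). The mean level of that list was 4.25 to 4.37 in LPS plus PGE, 4.24 to 4.53 in LPS and 4.25 to 4.28 in untreated arrays. The part of such cells in the Lox and Mmp10 differences was not tested. Macrophage markers averaged 11.55 to 11.60 in LPS plus PGE, 11.57 to 11.62 in LPS and 11.41 to 11.51 in untreated arrays. This mean includes the large rise of Cd14 given below, and the median change of the markers was -0.0489 with LPS and -0.0545 with LPS plus PGE over untreated cells. Of these 11 markers 2 rose and none fell with LPS, 1 rose and 1 fell with LPS plus PGE over untreated cells, and 1 rose and 2 fell with LPS plus PGE over LPS (4 and none with array medians made equal). Cd14, a co-receptor for LPS, rose in all 3 comparisons, by 2.22 with LPS plus PGE and by 1.64 with LPS over untreated cells. The scavenger receptor gene Msr1 rose by 0.29 with LPS and was lower in LPS plus PGE than in LPS (-0.30, limma adjusted p = 0.00784; 0.145 with equal medians). The transcription factor gene Spi1, named after its values were seen, was lower in LPS plus PGE than in untreated cells (-0.17, limma adjusted p = 0.0358) and than in LPS (-0.18, 0.0426). Both calls depended on the scaling. No macrophage marker passed as lower in LPS plus PGE than in untreated cells after cyclic loess normalization or with array medians made equal. With equal medians none passed as lower than in LPS either. Other settings kept or added falls of macrophage markers. After quantile normalization 2 were lower in LPS plus PGE than in untreated cells and 2 lower than in LPS. After cyclic loess 3 were lower than in LPS. Csf1r, the receptor for the growth factor in the medium and also named afterwards, averaged 12.53 in LPS plus PGE, 12.48 in LPS and 12.54 in untreated arrays. Endothelial and mast cell markers, 6 in each list, had 1 call each, Cdh5 (0.35 in LPS plus PGE over untreated cells) and Cma1 (0.37 in LPS plus PGE over LPS). No endothelial marker rose after quantile normalization and no mast cell marker after quantile or cyclic loess normalization. With array medians made equal, 2 endothelial and 4 mast cell markers rose in LPS plus PGE over untreated cells, and 2 of each list over LPS.

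Of 15 other matrix metalloproteinases measured, 1 rose and 2 fell with LPS, 3 rose with LPS plus PGE over untreated cells, and 3 rose and 1 fell between LPS plus PGE and LPS. With array medians made equal, 7 rose over untreated cells, and 5 rose and 1 fell over LPS. After quantile or cyclic loess normalization 3 rose and 2 fell over LPS. Besides Mmp10, the genes that passed were Mmp19, Mmp24 and Mmp25, and all 3 rose in LPS plus PGE over both other groups. The fall of Mmp24 with LPS (-0.25 ± 0.07, limma adjusted p = 0.0443) was lost after cyclic loess normalization (0.0535) and with equal medians (0.0529). Mmp25, which encodes a metalloproteinase tethered to the membrane, stood at 5.46, 5.33, 5.26 and 5.53 with LPS plus PGE, 4.41, 4.66 and 4.78 with LPS, and 4.37, 4.15, 4.09 and 4.56 in untreated cells. It rose by 1.10 ± 0.11 over untreated cells and by 0.78 ± 0.12 over LPS (limma adjusted p = 1.49e-05 and 0.00144). Mmp19, a secreted metalloproteinase singled out after its values were seen, was 9.98, 10.05, 9.98 and 10.07 with LPS plus PGE, 9.18, 9.16 and 9.22 with LPS, and 9.54, 9.49, 9.37 and 9.53 in untreated cells. Its LPS arrays were the lowest of all, where those of Mmp13 were the highest. LPS lowered it (-0.30 ± 0.06, limma adjusted p = 0.00572), and it was 0.83 ± 0.06 higher in LPS plus PGE than in LPS (limma adjusted p = 4.31e-06).

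Of 17 other ADAMTS genes none passed with LPS, while 6 rose and 1 fell with LPS plus PGE over untreated cells (1 rose after quantile and 2 after cyclic loess normalization, and 13 with array medians made equal). In LPS plus PGE over LPS 8 rose, by at most 0.77 (Adamts17) and next 0.59 (Adamts8), but 2 after quantile or cyclic loess normalization and 12 with array medians made equal. Dim genes as a whole shifted the same way: the median change between LPS plus PGE and LPS was 0.14 among the 6252 dimmest genes. It was -0.07 among the 6251 genes of middle level (mean level 4.313 to 7.99) and -0.08 among the 6252 brightest. With LPS plus PGE over untreated cells the median change was 0.135 among the dimmest genes. Adamts17 and Adamts8 were not among the dimmest genes but in the middle range, with group means of 5.5 to 6.3 and 5.5 to 6.1. Of 9 membrane ADAM proteases, Adam17, which sheds tumour necrosis factor from the cell surface, rose by 0.24 with LPS and was lower with LPS plus PGE than with LPS (-0.19), and Adam15 fell by 0.19 with LPS. Each of these 3 calls was lost under at least 1 other scaling. Of 7 other inhibitors none passed with LPS, and 2 rose and 1 fell with LPS plus PGE over untreated cells. After quantile normalization none of them rose and 1 fell, after cyclic loess none passed, and with array medians made equal 4 rose. A2m (0.52) and Timp4 (0.34) were higher in LPS plus PGE than in LPS, Timp4 not after quantile or cyclic loess normalization (limma adjusted p = 0.503 and 0.274).

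Of 9 other lysyl oxidase and crosslinking genes, 1 rose with LPS, 2 with LPS plus PGE over untreated cells, and 2 with LPS plus PGE over LPS. The one that changed by over 1 was Tgm2, a transglutaminase that links matrix and cell proteins. It measured 12.13, 11.95, 12.04 and 12.06 with LPS plus PGE, 11.16, 11.01 and 11.03 with LPS, and 10.28, 10.04, 10.06 and 10.24 in untreated cells, with no overlap between groups. It rose by 1.89 ± 0.07 with LPS plus PGE and by 0.91 ± 0.08 with LPS over untreated cells, and by 0.98 ± 0.08 between LPS plus PGE and LPS (limma adjusted p = 1.47e-09, 5.12e-06 and 7.93e-06). Loxl1, a relative of Lox, was also higher in LPS plus PGE than in LPS (0.54 ± 0.11), though not after quantile normalization (limma adjusted p = 0.0772). Its rise over untreated cells (0.36 ± 0.10) was lost after quantile and cyclic loess normalization (limma adjusted p = 0.25 and 0.111).

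Plasminogen activation, which leads to plasmin, held the largest changes among the activators. Of 13 activators and surface partners, 8 rose with LPS and 7 with LPS plus PGE over untreated cells, and 4 rose and 2 fell between LPS plus PGE and LPS. With LPS 6 rose after quantile normalization or with array medians made equal. Between LPS plus PGE and LPS none fell under these scalings or after cyclic loess normalization. There 3 rose after quantile or cyclic loess normalization and 4 with equal medians. Plat, the tissue-type plasminogen activator gene, was 10.06, 9.23, 9.42 and 10.07 with LPS plus PGE, 7.55, 8.17 and 7.25 with LPS, and 4.50, 4.87, 3.73 and 3.63 in untreated cells. The groups did not overlap, and the change between LPS plus PGE and LPS was 2.04 ± 0.32 (limma adjusted p = 0.00155). Plaur, the urokinase receptor gene, and Serpinb2, an inhibitor of plasminogen activators, were likewise higher in LPS plus PGE than in LPS, by 0.62 ± 0.07 and 1.43 ± 0.14 (limma adjusted p = 0.000161 and 4.25e-05). Plau, the urokinase gene, was highest with LPS alone: it rose by 0.71 ± 0.10 with LPS plus PGE and by 1.04 ± 0.10 with LPS over untreated cells, and LPS plus PGE was lower than LPS (-0.33 ± 0.10, limma adjusted p = 0.0366), a call that was lost after quantile and cyclic loess normalization and with equal medians (0.0571, 0.0731 and 0.183).

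Among 23 genes of matrix proteins, 1 rose and 1 fell with LPS, and 10 rose with LPS plus PGE over untreated cells (5 after quantile and 7 after cyclic loess normalization, 15 with array medians made equal). Between LPS plus PGE and LPS 6 rose (4 after quantile or cyclic loess normalization, 13 with array medians made equal). Of all genes 13.8% rose with LPS plus PGE over untreated cells and 11.9% over LPS. The median change of the dimmest genes in these comparisons was 0.135 and 0.14. Thbs1, the gene of thrombospondin, a matrix glycoprotein, had the largest change of the list. It stood at 12.54, 12.34, 12.47 and 12.58 with LPS plus PGE, against 9.39, 9.39 and 9.64 with LPS and 9.34, 9.25, 9.80 and 9.79 in untreated cells. LPS and untreated arrays overlapped, and LPS plus PGE lay far above both. The change over LPS was 3.01 ± 0.14 (limma adjusted p = 6.31e-08), and LPS differed from untreated cells by -0.08 ± 0.14 (limma adjusted p = 0.779). The other rises of the list with LPS plus PGE over untreated cells were at most 0.63 (Tnc, with group means of 3.56 to 4.18).

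**Figure D4:**
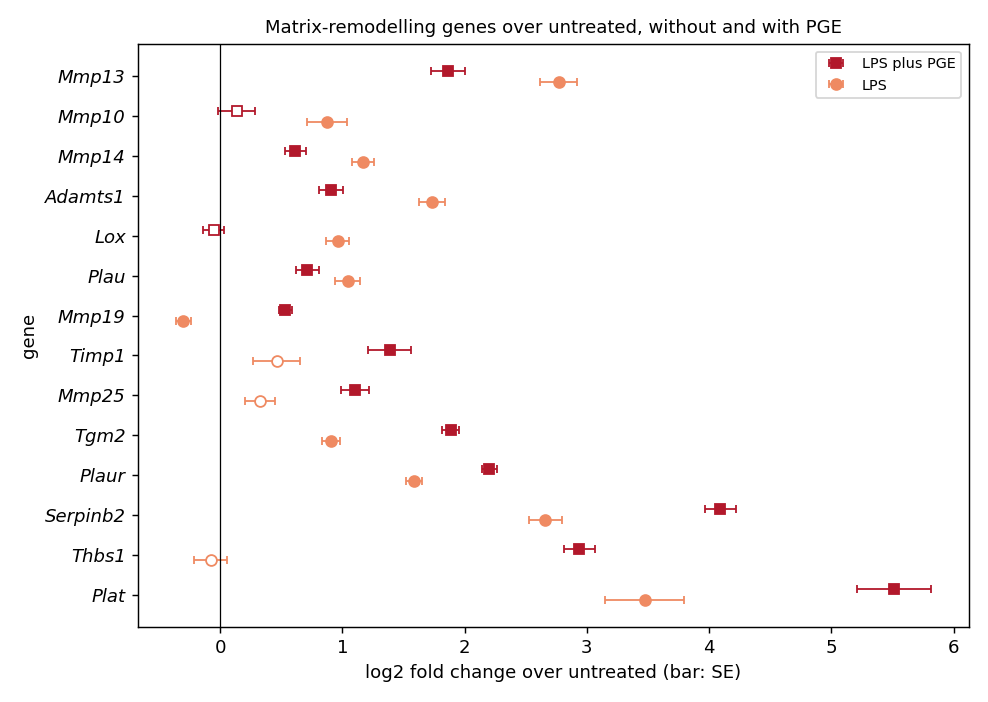
Log2 fold change over untreated cells (bar: SE) of 5 of the 9 followed genes and 9 related genes, for LPS plus PGE (squares) and LPS (circles); filled symbols passed the limma adjusted p of 0.05. For Mmp13, Mmp10, Mmp14, Adamts1, Lox and Plau the square lies left of the circle, and for the remaining genes it lies right of it.

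Genes whose pattern lay nearest to that of a followed gene were found by the root mean square difference over the 11 arrays, each value taken minus the gene's own untreated mean. Predicted genes and small RNA genes were left out of this search. Nearest to Mmp13 were the phosphatase gene Dusp4 (0.187 on the log2 scale), Cdc42ep2 (0.277) and Cdk5r1 (0.291). Mmp14 had Dyrk2 (0.146), Arhgef3 (0.149) and the macrophage transcription factor gene Spic (0.154), and Adamts1 had Sema6d (0.200), Zfp558 (0.221) and the interferon-induced GTPase gene Gbp2 (0.225). Timp1 lay nearest to D16Ertd472e (0.155), Nipal1 (0.177) and Dennd4a (0.179), and Lox to Calhm6 (0.109), Fnbp1l (0.119) and Mob3c (0.127). Calhm6, picked here by its likeness to Lox, changed by 0.92 with LPS and by 0.06 with LPS plus PGE over untreated cells.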

How the data were processed

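RNA was hybridised to Affymetrix mouse gene arrays, 250 ng of total RNA per sample per the labels. The deposited values are 1 level per probe set and array on a log2 scale, inferred from RMA, named with Affymetrix Power Tools, R 2.13.1 and Partek in the submitters' processing notes, and from their range (1.21 to 13.81). A genome build was not given in the sources used here. Of 35309 probe sets, 21143 had 1 gene symbol, and the one with the highest mean was taken per gene. The number of arrays limits the precision. Group means of all 18755 genes were compared with limma 3.58.1 in R 4.3.3 (two-sided, Benjamini-Hochberg adjusted over all genes), after testing on simulated data. Figures used matplotlib 3.10.9. The 9 genes, the lists and the alternatives were chosen with earlier results of these data known. In other lists, genes past 2-fold were named, or the 2 with the largest changes; listed genes without a probe set of their own were not analysed here. Arrays were not treated as paired, since the labels give the replicate numbers no meaning and not every pair of arrays with the same number had deviations correlating over 0.1.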

Additional observations from a re-analysis of the deposited data

How the results depend on the processing

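All 13 calls among the 9 genes held under each of 21 alternatives: other scalings (quantile, cyclic loess, array medians made equal), a variance prior that was robust and followed the level, 2 groups alone, the dimmest genes left out, other probe set rules, the replicate number as a block, a threshold of 0.01 and each array left out. Some of these could hardly change a call. Each of the 9 genes had 1 probe set, so other probe set rules kept its values. Every call already lay under 0.01 as reported. Leaving out an array outside the 2 groups compared kept the fold change. For Mmp13 the change between LPS plus PGE and LPS ranged from -1.08 to -0.743, and for Timp1 from 0.775 to 1.10. Equal medians moved the median of all genes to 0.143 in LPS plus PGE over untreated cells and to 0.154 over LPS. The signs of Mmp3 (0.0524), Mmp12 (0.0434) and Lox (0.0751) over untreated cells and of Mmp12 (0.0944) over LPS turned there, though each lay below the shift of all genes. Mmp9 passed under that scaling (0.356 and 0.376), and 3 of the 9 rose over LPS. Other signs that turned belonged to genes that had not passed: Mmp12 with LPS after cyclic loess (0.0315), Mmp9 with LPS under equal medians (-0.0209), and Timp3 with LPS plus PGE over untreated cells after quantile (-0.103) and cyclic loess (-0.0298) normalization. The cause was not tested.

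Leaving out 1 array at a time gave Mmp9 -0.112 to 0.15 and Mmp12 -0.0503 to 0.0286 with LPS, and Mmp3 -0.282 to 0.0463 and Timp3 -0.00879 to 0.158 with LPS plus PGE over untreated cells. Of the 9 genes 0 to 1 fell with LPS (Timp3 without LPS replicate 1) and 1 to 2 rose in LPS plus PGE over LPS. All genes that fell in that comparison numbered 1412 (without LPS replicate 3) to 2324, against 2416 with all arrays.

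Of all genes, at a threshold of 0.01, 781 rose and 608 fell with LPS, 1268 and 2056 with LPS plus PGE over untreated cells, and 827 and 922 over LPS. After quantile normalization 1564 rose over untreated cells, and 932 rose and 967 fell over LPS. After cyclic loess 1880 fell over untreated cells, and 1135 rose and 1038 fell over LPS. Equal medians gave 5747 and 1724 over untreated cells and 5850 and 718 over LPS. Without the dimmest genes 1260 rose over LPS, and over all probe sets 2207 fell with LPS and 5135 with LPS plus PGE over untreated cells.

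The same replicate number did not mark a stated pair. Deviations of same-numbered arrays correlated at -0.0201 to 0.207, with 7 of 10 pairs over 0.1, and no pair with different numbers was over 0.1, a hint from the data and not from the design. With the replicate block, 2 of the 9 genes rose in LPS plus PGE over LPS, since Timp3 passed (0.425), Mmp9 with LPS turned to -0.00657, and no call was lost.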

Other observations

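LPS plus PGE replicates 1 and 4 were higher than replicates 2 and 3 for several of the genes described. For Timp1 they were 7.67 and 7.42 against 6.83 and 6.94, for Mmp13 9.92 and 9.89 against 9.48 and 9.50, and for Plat 10.06 and 10.07 against 9.23 and 9.42. Mmp14 was not split in this way. These genes were picked after their values were seen.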
